A study of Mus musculus with 8 samples.

Results

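The noncycling, Lgr5-positive epithelial cells of the mouse cecum are described here, 987 cells of 6773 cecal cells and of 15916 cells in the whole data set. A cecal cell was taken when it held at least 500 transcripts, 3 or more transcripts of Lgr5, fewer than 3 of 10 mitotic genes (Top2a, Mki67, Cenpf, Ube2c, Aspm, Nusap1, Kif11, Cenpe, Prc1 and Anln) and less than 0.5% of its transcripts from 8 goblet genes (Muc2, Fcgbp, Clca1, Zg16, Tff3, Spink4, Agr2 and Reg4). The cells were thus chosen by their measured Lgr5, mitotic and goblet counts, and the levels of those genes below are descriptions. Of 1797 cecal cells with 3 or more Lgr5 transcripts, 800 were left out for the mitotic genes and a further 10 for the goblet genes. At the Lgr5 threshold, 95 members held exactly 3 Lgr5 transcripts, and 137 cells that met the other terms held exactly 2.

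The study sorted epithelial cells from the colon and cecum of mice and sequenced them with a split-pool barcoding kit in 8 sublibraries. The deposited cell table names 4 cecal groups of 4 numbered samples each: GF (germ-free mice, raised without microbes), Abx_14D and Abx_4D (antibiotic-treated mice, with 14D and 4D as the table writes them) and Ctrl (control mice). The labels name neither the antibiotics, strain and age nor whether each numbered sample is its own animal. The p-values therefore reflect sample-to-sample spread only, and that spread may be technical. Cells were pooled by condition and sorted as EPCAM-positive and CD45-negative, with CD44-positive and CD44-negative cells in equal parts, which bears on every share of cells. The series title concerns how microbial nicotinic acid bears on colon regional identity and on injury.

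Lgr5 encodes a receptor for R-spondins, secreted proteins that raise Wnt signalling at the crypt base. In the mouse intestine, Lgr5-positive crypt base cells renew themselves and give rise to the absorptive, goblet, enteroendocrine and tuft lineages. The cecum is a blind pouch that holds a dense microbial community, and epithelial cells in contact with microbes are known to express antigen-presentation, interferon-response and antimicrobial genes.

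A member held a median of 13652 transcripts from 4464 genes, and a median of 10 Lgr5 transcripts with a range of 3 to 79. The summed members of a sample held 336233 to 2139675 transcripts. In 4 samples (GF 4, Abx_14D 3, Abx_14D 4 and Abx_4D 2) cells had a median mitochondrial share above 0.5%. Without those samples the counts of called genes given below were 290 in GF, 38 in Abx_14D and 21 in Abx_4D, each against Ctrl. The stem cell label was checked against 8 crypt-base genes that did not enter the choice (Ascl2, Smoc2, Axin2, Rnf43, Znrf3, Olfm4, Slc12a2 and Cdca7). Members held a median of 6 of the 8, and 920 of 987 (93.2%) held 4 or more, against 228 of 1750 (13.03%) cecal absorptive cells. Cecal Lgr5-positive cycling cells, with 3 or more of the mitotic genes, also held a median of 6, and 759 of 771 (98.4%) held 4 or more. With cells thinned to 5000 transcripts, 81.3% of members, 79.8% of Lgr5-positive cycling cells and 3.35% of absorptive cells held 4 or more. The check thus sets members apart from absorptive cells and not from cycling ones. Olfm4, a stem cell gene of the mouse small intestine, had a transcript in 12 members. Smoc2, a matrix protein of crypt-base cells, averaged 328 CPM (counts per 1000000 summed transcripts) over 16 samples in members and 8.52 CPM in absorptive cells. Slc12a2, a basolateral chloride importer of crypt cells, averaged 2174 CPM in members and 148 CPM in absorptive cells. Krt20, a keratin of surface cells and 1 of the 10 genes that defined the absorptive class, averaged 21.3 CPM in members.

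The noncycling label covers mitotic genes alone. Of 987 members, 280 (28.4%) held 8 or more of 21 S-phase and replication genes, against 491 of 771 (63.7%) Lgr5-positive cycling cells and 56 of 1750 (3.2%) absorptive cells. Median depths were 13652 transcripts in members, 21617 in cycling cells and 13365 in absorptive cells. With cells thinned to 5000 transcripts the shares were 65 of 919 members (7.07%), 175 of 767 cycling cells (22.8%) and 11 of 1492 absorptive cells (0.737%), which left out 68 members, 4 cycling cells and 258 absorptive cells. Lgr5 transcripts also appeared in other types. Of 35 cecal cells with 8 or more tuft markers 16 were members, and 8 of the other 19 (42.1%; median depth 11753) held at least 1. Of 22 cells with 5 or more enteroendocrine markers 2 were members, and 5 of the other 20 (25%; median depth 19832.5) did. So did 194 of 1198 cells with 8 or more absorptive genes (16.2%; median depth 16036.5) and 10 of 120 goblet-rich cells (8.33%; median depth 18031.5). Among members, 17 held 3 or more tuft markers and 3 held 3 or more enteroendocrine markers. The tuft-marked members were 2, 2, 4 and 2 cells in GF samples 1 to 4, 0, 1, 1 and 1 in Abx_14D, 0 in each Abx_4D sample, and 2, 0, 2 and 0 in Ctrl. Immune markers summed to 26.8 ± 12 CPM in GF, 7.08 ± 4.24 CPM in Abx_14D, 31.5 ± 51.4 CPM in Abx_4D and 9.87 ± 3.86 CPM in Ctrl (SD, n = 4 each). A well combination was shared with a cell of another sublibrary by 45 members.

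Members made up 19.1%, 14.2%, 16.5% and 14.0% of cecal cells in GF samples 1 to 4, and 19.3%, 17.1%, 6.39% and 10.3% in Abx_14D. They made up 21.5%, 18.8%, 12.9% and 17.4% in Abx_4D, and 28.3%, 17.2%, 14.1% and 10.2% in Ctrl. The 4 groups overlapped, with means of 16.0% ± 2.37 in GF, 13.3% ± 5.99 in Abx_14D, 17.7% ± 3.59 in Abx_4D and 17.5% ± 7.76 in Ctrl (SD, n = 4 each). None of 5 comparisons passed the two-sided exact permutation test, whose smallest possible p is 0.0286. The difference was -1.50 percentage points for GF against Ctrl (exact permutation p = 0.8), -4.17 for Abx_14D against Ctrl (p = 0.486) and 0.206 for Abx_4D against Ctrl (p = 0.943), and the smallest adjusted p over the 5 was 0.81. Shares were also taken over cells of at least 5000 transcripts only, each thinned to 5000. Those were 1386 of 1636 cells in GF, 1958 of 2296 in Abx_14D, 1256 of 1511 in Abx_4D and 1143 of 1330 in Ctrl. Mean shares were then 17.2% in GF, 12.5% in Abx_14D, 16.7% in Abx_4D and 16.7% in Ctrl.

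**Figure D1:**
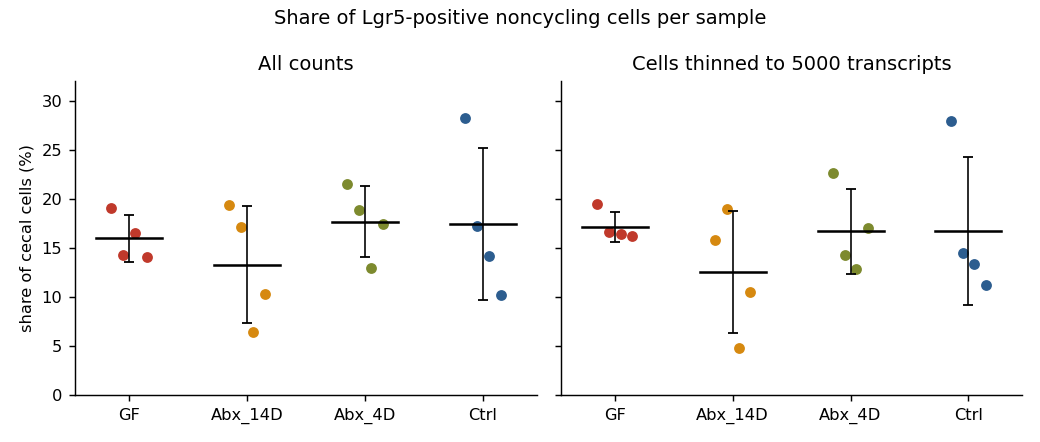
Share of Lgr5-positive noncycling cells among cecal cells (percent, vertical axis, from 0) in GF, Abx_14D, Abx_4D and Ctrl. Points are the 4 samples of a group, the black line is the mean and the bars are ± 1 SD. The groups overlap, and Ctrl spreads from 10.2% to 28.3%.

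Gene expression was compared in counts summed over the members of each sample. Of 9412 genes tested, 335 (3.56%) passed an adjusted p of 0.05 (edgeR quasi-likelihood test, Benjamini-Hochberg) in GF against Ctrl, 85 (0.903%) in Abx_14D against Ctrl and 17 (0.181%) in Abx_4D against Ctrl. These 3 comparisons share the Ctrl samples. Genes of antigen presentation fell in GF and Abx_14D, metallothioneins rose in each comparison, and the Wnt-dependent stem cell genes mostly did not pass the test.

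MHC class II molecules present peptides to CD4-positive T cells. Their alpha and beta chains assemble with the invariant chain Cd74, and Ciita, the class II transactivator, turns on the whole set through a shared promoter element of X and Y boxes. Of 6 class II genes tested, 5 fell in GF against Ctrl, where 2.28% of all genes were called lower, and 5 fell in Abx_14D against Ctrl, where 0.606% were. In Abx_4D against Ctrl 0 of the 6 passed the edgeR test, where 0.127% of all genes were called lower, and 3 of the 6 had an unadjusted p under 0.05. The median log2 change of the 6 was -6.02 in GF, -2.75 in Abx_14D and -0.63 in Abx_4D, beside 0.00, 0.02 and 0.01 over all genes tested.

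Cd74 had 8.70, 5.59, 3.74 and 4.19 CPM in the GF samples, 91.6, 62.2, 109 and 142 CPM in Abx_14D, 416, 202, 357 and 243 CPM in Abx_4D, and 607, 569, 399 and 605 CPM in Ctrl. All GF samples were lower than all Abx_14D samples, which were lower than all Abx_4D samples, while Abx_4D overlapped Ctrl through 1 sample of each. The log2 change against Ctrl was -6.64 ± 0.33 (SE) in GF (edgeR adjusted p = 5.3e-12), -2.46 ± 0.24 in Abx_14D (2.1e-06) and -0.82 ± 0.22 in Abx_4D (0.16). Between the depleted groups it was -4.19 for GF against Abx_14D (edgeR adjusted p = 2.4e-07), where 0.223% of genes were called lower, and -1.64 for Abx_14D against Abx_4D (0.0016), where 0.085% were.

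H2-Ab1, the beta chain of the I-A molecule, had 0 counts in each GF sample, 5.73, 9.63, 17.3 and 29.9 CPM in Abx_14D, 95.9, 32.7, 64.1 and 47.0 CPM in Abx_4D, and 91.4, 94.6, 79.3 and 136 CPM in Ctrl. With 3 counts over the group as the floor, GF was at least 157-fold lower than Ctrl and at least 20.8-fold lower than Abx_14D. H2-Aa, the I-A alpha chain, had 3 counts over the GF samples against 145 in Ctrl, a ratio of 83.6-fold lower with a 95% counting interval of 28.0 to 410. Its levels were 4.03 ± 3.42 CPM in Abx_14D, 35.4 ± 7.26 CPM in Abx_4D and 53.9 ± 19.3 CPM in Ctrl (SD, n = 4 each). Intervals and floors cover counting error only.

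H2-Eb1, the beta chain of the I-E molecule, had 1.93, 2.24, 0 and 0 CPM in GF, 4.09, 1.75, 1.33 and 5.27 CPM in Abx_14D, 41.8, 11.9, 27.8 and 23.02 CPM in Abx_4D, and 54.3, 59.9, 43.5 and 83.8 CPM in Ctrl. Ctrl samples lay above all samples of the other 3 groups, and GF and Abx_14D overlapped. The log2 change was -5.92 ± 0.53 in GF (edgeR adjusted p = 2.2e-07), -4.26 ± 0.46 in Abx_14D (1.0e-05) and -1.10 ± 0.33 in Abx_4D (0.26). Ciita had 0.967, 2.24, 0.467 and 0 CPM in GF, 7.36, 4.38, 3.99 and 10.5 CPM in Abx_14D, 45.6, 29.7, 32.1 and 22.1 CPM in Abx_4D, and 18.5, 52.0, 44.8 and 48.6 CPM in Ctrl. Abx_4D and Ctrl overlapped for Ciita, and the other 2 groups lay below both. H2-DMa, which helps load peptides on class II, did not pass the test, with 6.77 ± 1.37 CPM in GF, 8.98 ± 4.07 CPM in Abx_14D, 13.6 ± 3.06 CPM in Abx_4D and 13.1 ± 5.82 CPM in Ctrl (SD, n = 4 each).

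**Figure D2:**
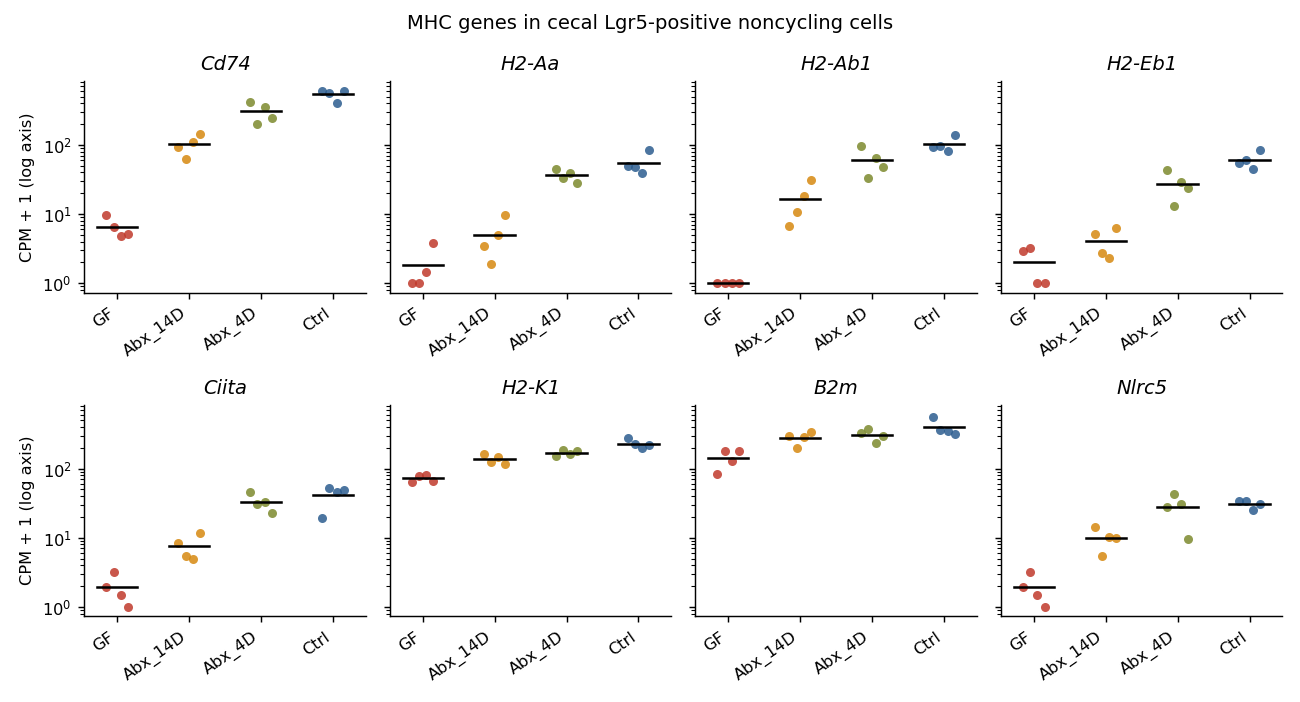
Levels of MHC genes in Lgr5-positive noncycling cells in GF, Abx_14D, Abx_4D and Ctrl, with 1 point per sample and a black line at the mean. Vertical axes are logarithmic and show CPM + 1, while the values given here are CPM. Cd74 lies at 3.74 to 8.70 CPM in GF, 62.2 to 142 CPM in Abx_14D, 202 to 416 CPM in Abx_4D and 399 to 607 CPM in Ctrl.

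The class II promoters are shown because their genes fell together and share a known element. RefSeq promoter windows (250 bases before to 50 after the annotated start, build GRCm38.p6) are shown for H2-Eb1 and H2-Aa among the 5 called genes. Capitals mark matches, on either strand, to an X box core, ACNGATG. They also mark matches, on either strand, to the core of the Y box, which is ATTGG. The H2-Eb1 window is chr17:34305617-34305916 on the plus strand, and the H2-Aa window is chr17:34287774-34288073 on the minus strand, each written 5′ to 3′ along its gene.
H2-Eb1: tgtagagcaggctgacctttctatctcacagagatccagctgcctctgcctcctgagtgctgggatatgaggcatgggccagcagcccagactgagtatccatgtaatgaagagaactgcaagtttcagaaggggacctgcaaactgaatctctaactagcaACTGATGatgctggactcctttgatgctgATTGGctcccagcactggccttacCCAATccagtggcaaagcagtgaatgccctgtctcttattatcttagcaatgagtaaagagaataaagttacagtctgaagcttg
H2-Aa: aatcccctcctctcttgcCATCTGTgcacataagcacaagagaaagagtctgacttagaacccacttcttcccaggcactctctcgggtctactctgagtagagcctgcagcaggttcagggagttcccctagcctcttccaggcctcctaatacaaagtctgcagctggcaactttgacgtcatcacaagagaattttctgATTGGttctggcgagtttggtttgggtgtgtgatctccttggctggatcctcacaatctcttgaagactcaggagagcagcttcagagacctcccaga
H2-Eb1 held 1 X box core match, at -88 to -82 from the start, and 2 Y box matches at -59 to -55 and -35 to -31. H2-Aa held 1 Y box match at -48 to -44, and its 1 X box core match lay on the other strand, farther from the start at -232 to -226. The H2-Aa window thus did not hold X and Y box matches close together on 1 strand, as the H2-Eb1 window did. A longer form of the X box, searched first, matched H2-Eb1 and not H2-Aa. Over 32851 promoters of this length, 9.85% held the X box core, 37.4% the Y box core and 3.65% both. A match is a description of the letters and does not show binding.

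The fall was also seen as cells without class II transcripts. Cells of at least 5000 transcripts were thinned to 5000, and the others were left out. Then 239 of 249 members in GF (96.0%) held no transcript of Cd74, H2-Aa, H2-Ab1 or H2-Eb1. The same held for 178 of 241 in Abx_14D (73.9%), 102 of 236 in Abx_4D (43.2%) and 25 of 193 in Ctrl (12.95%). In Lgr5-positive cycling cells treated the same way, cells with none were 98.7% in GF, 74.4% in Abx_14D, 32.1% in Abx_4D and 19.4% in Ctrl. In absorptive cells they were 98.4% in GF, 93.3% in Abx_14D, 76.9% in Abx_4D and 32.7% in Ctrl. Goblet-rich cells with at least 1 such transcript were 1 of 47 in GF, 0 of 27 in Abx_14D, 4 of 15 in Abx_4D and 6 of 24 in Ctrl. The 0 of 27 allows a share of up to 11.1%. Median depths of members before thinning were 18276 transcripts in GF, 14298 in Abx_14D, 12042.5 in Abx_4D and 12809 in Ctrl, and those of goblet-rich cells were 17934 in GF, 17356 in Abx_14D, 17771 in Abx_4D and 23349 in Ctrl.

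**Figure D3:**
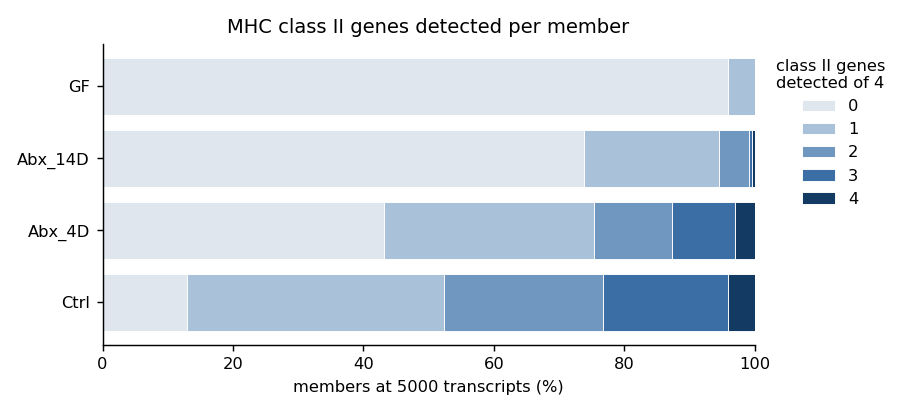
Number of the 4 class II genes (Cd74, H2-Aa, H2-Ab1 and H2-Eb1) detected per Lgr5-positive noncycling cell after thinning to 5000 transcripts, as the percent of cells in GF, Abx_14D, Abx_4D and Ctrl. Cells with 0 of 4 make up 96.0% in GF, 73.9% in Abx_14D, 43.2% in Abx_4D and 12.95% in Ctrl.

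MHC class I molecules present peptides from inside the cell to CD8-positive T cells. Of 18 class I genes tested, 12 fell in GF, 2 in Abx_14D and 0 in Abx_4D, each against Ctrl, with median log2 changes of -1.13, -0.45 and -0.16. Over all genes tested, 2.28% were called lower in GF, 0.606% in Abx_14D and 0.127% in Abx_4D. These shares also stand beside the counts of falling genes in the lists below. H2-K1, a class I heavy chain, had 63.8, 77.1, 79.0 and 65.6 CPM in GF, 160, 122, 146 and 114 CPM in Abx_14D, 151, 187, 160 and 178 CPM in Abx_4D, and 273, 224, 197 and 218 CPM in Ctrl. GF lay below every other sample and Ctrl above every other sample. Its log2 change was -1.66 ± 0.16 in GF (edgeR adjusted p = 4.0e-07) and -0.74 ± 0.15 in Abx_14D (0.015). Nlrc5, the class I transactivator, had 0.967, 2.24, 0.467 and 0 CPM in GF, 13.1, 4.38, 9.32 and 8.78 CPM in Abx_14D, 26.6, 41.6, 29.9 and 8.63 CPM in Abx_4D, and 33.1, 33.1, 24.3 and 30.2 CPM in Ctrl. The GF samples were lowest and Abx_14D lay below Ctrl. The log2 change of Nlrc5 against Ctrl was -4.94 ± 0.58 in GF (edgeR adjusted p = 1.1e-05) and -1.74 ± 0.41 in Abx_14D (0.041). Its call in Abx_14D was lost in 20 of 36 settings.

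The light chain B2m averaged 143 ± 47.5 CPM in GF and 395 ± 110 CPM in Ctrl (SD, n = 4 each), a log2 change of -1.49 ± 0.23. The immunoproteasome subunit Psmb8 averaged 2.80 ± 2.28 CPM in GF and 29.7 ± 11.5 CPM in Ctrl (SD, n = 4 each), a log2 change of -3.37 ± 0.46. Both passed the edgeR test in GF and neither did in Abx_14D or Abx_4D. The differences GF against Abx_14D passed for H2-K1 (-0.92, edgeR adjusted p = 0.0044) and Nlrc5 (-3.20, 0.024), the 2 of 18 class I genes called there.

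Of 26 interferon-response genes tested, 8 fell in GF (among them Iigp1, Irgm2, Parp14, Parp9, Dtx3l, Gbp7 and Oasl2), 2 in Abx_14D (Iigp1 and Irgm2) and 0 in Abx_4D, with median log2 changes of -0.86, -0.19 and -0.02. Iigp1, an interferon-inducible GTPase, had 1 count over the GF samples against 213 in Ctrl, a ratio of 368-fold lower with a 95% counting interval of 65.4 to 14616. It had 26.2, 0, 18.6 and 17.6 CPM in Abx_14D, 38.0, 23.8, 70.6 and 43.2 CPM in Abx_4D, and 43.7, 69.4, 57.6 and 153 CPM in Ctrl. Abx_14D lay below Ctrl (log2 change -2.37 ± 0.51, edgeR adjusted p = 0.023), and Abx_4D overlapped it. Calls in Abx_14D were lost in 6 of 37 settings for Iigp1 and 15 of 36 for Irgm2. Parp14, an interferon-induced ADP-ribosyltransferase, had 20.3, 19.0, 23.8 and 22.3 CPM in GF, 51.5, 54.3, 39.9 and 35.1 CPM in Abx_14D, 65.5, 50.6, 65.2 and 54.7 CPM in Abx_4D, and 58.3, 61.5, 48.6 and 50.3 CPM in Ctrl. The GF samples lay below all others, at -1.33 ± 0.21 against Ctrl (edgeR adjusted p = 0.00043) and -1.09 ± 0.20 against Abx_14D (0.0099). Parp14 and Parp9, which use NAD as their substrate, were the 2 called of 15 tested nicotinic acid and NAD genes in GF, and 0 of those 15 passed in either Abx group (3 in Abx_14D and 2 in Abx_4D at an unadjusted p under 0.05).

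Duox2, Cd177, Pla2g5, Plet1 and Casp4, genes of defence and inflammation or of the cell surface, fell in all 3 groups against Ctrl. The calls were not equally stable: that of Plet1 in Abx_14D was lost in 12 of 36 settings (highest adjusted p = 0.52, by DESeq2), with any 1 Ctrl sample or Abx_14D 1, 3 or 4 left out among them. That of Casp4 in Abx_4D was lost in 12 of 37 (highest edgeR adjusted p = 0.40, with cells thinned), among them without Ctrl 3 or 4 or Abx_4D 1, 3 or 4. In Abx_4D the Cd177 call was lost in 5 of 37 settings and the Duox2 call in 1 of 36, while the Pla2g5 calls held in all 35. Of 14 antimicrobial and innate genes tested, 3 fell in GF (Duox2, Reg3g and Nfkbia), 2 in Abx_14D (Duox2 and Zc3h12a) and 1 in Abx_4D (Duox2), with median log2 changes of -0.49, -0.43 and -0.41. Duox2, an oxidase that releases hydrogen peroxide, had 10.6, 1.12, 4.67 and 4.19 CPM in GF, 6.54, 1.75, 2.66 and 8.78 CPM in Abx_14D, 14.2, 11.9, 13.9 and 4.79 CPM in Abx_4D, and 72.9, 80.4, 46.1 and 45.3 CPM in Ctrl. Ctrl lay above every sample of the other groups, and the log2 change was -3.51 ± 0.42 in GF (edgeR adjusted p = 1.5e-05), -3.68 ± 0.44 in Abx_14D (4.8e-05) and -2.45 ± 0.40 in Abx_4D (0.0064). Cd177, a surface protein best known from neutrophils, had 3.87, 1.12, 13.6 and 5.58 CPM in GF, 4.09, 7.005, 7.99 and 0 CPM in Abx_14D, 68.3, 68.4, 31.0 and 56.6 CPM in Abx_4D, and 164, 336, 180 and 134 CPM in Ctrl. Abx_4D lay between Ctrl and the other 2 groups with no overlap: the log2 change was -4.77 ± 0.42 in GF (edgeR adjusted p = 2.2e-07), -5.28 ± 0.46 in Abx_14D (5.8e-07) and -1.88 ± 0.34 in Abx_4D (0.014), and -3.39 ± 0.50 for Abx_14D against Abx_4D (0.0016). Members with tuft or enteroendocrine markers held 46 of the 183 Cd177 counts in Abx_4D. Without them Cd177 averaged 6.30 ± 5.61 CPM in GF, 4.82 ± 3.63 CPM in Abx_14D, 45.9 ± 26.1 CPM in Abx_4D and 205 ± 89.4 CPM in Ctrl.

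Pla2g5, a secreted phospholipase, had 3 counts over the GF samples (0.638 ± 0.508 CPM), 2.90 ± 1.32 CPM in Abx_14D, 3.72 ± 0.543 CPM in Abx_4D and 29.2 ± 13.4 CPM in Ctrl (SD, n = 4 each). It fell in each group, by a ratio of 45.5-fold in GF (95% counting interval 15.0 to 226) and a log2 change of -2.87 ± 0.43 in Abx_4D (edgeR adjusted p = 0.0043). Plet1, a surface protein of epithelial progenitors, had 1.93, 0, 6.08 and 0 CPM in GF, 0, 11.4, 0 and 0 CPM in Abx_14D, 0 in each Abx_4D sample, and 26.5, 47.3, 31.99 and 31.9 CPM in Ctrl. Abx_4D was at least 38.1-fold lower than Ctrl with 3 counts over the group as the floor, and the Abx_14D mean came from 1 sample. Casp4, the mouse sensor of cytosolic lipopolysaccharide, averaged 43.5 ± 13.1 CPM in GF, 39.6 ± 11.9 CPM in Abx_14D, 47.8 ± 10.6 CPM in Abx_4D and 105 ± 21.7 CPM in Ctrl (SD, n = 4 each) and fell in each comparison.

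Tnfaip3, an inhibitor of NF-kB signalling, had 38.7, 24.6, 25.7 and 15.4 CPM in GF, 72.0, 82.3, 78.5 and 94.8 CPM in Abx_14D, 50.3, 26.8, 39.6 and 45.1 CPM in Abx_4D, and 90.1, 120, 111 and 134 CPM in Ctrl. Abx_14D overlapped Ctrl while GF and Abx_4D lay below both. The log2 change was -2.09 ± 0.22 in GF (edgeR adjusted p = 3.2e-06), -0.48 ± 0.21 in Abx_14D (0.39) and -1.43 ± 0.22 in Abx_4D (0.0043). GF against Abx_14D gave -1.61 ± 0.22 (edgeR adjusted p = 0.00090), and Abx_14D against Abx_4D gave 0.95 ± 0.22 (0.19). Tnf, the cytokine, had 3.87, 15.7, 6.08 and 0 CPM in GF, 14.7, 6.13, 6.66 and 3.51 CPM in Abx_14D, 22.8, 32.7, 34.2 and 5.75 CPM in Abx_4D, and 60.9, 67.8, 57.6 and 40.2 CPM in Ctrl. Ctrl lay above all other samples. Tnf fell in GF by 3.10 ± 0.50 (edgeR adjusted p = 0.00057) and in Abx_14D by 2.73 ± 0.49 (0.0057) on the log2 scale, while Abx_4D, at -1.33 ± 0.44, did not pass (0.32).

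Metallothioneins bind zinc and other metals, and their genes respond to metal load. Of 6 metallothionein and zinc genes tested, 3 rose in GF, where 1.27% of all genes were called higher, 2 rose in Abx_14D, where 0.297% were, and 2 rose in Abx_4D, where 0.0531% were. The list's median log2 change was 1.24 in GF, 1.11 in Abx_14D and 0.78 in Abx_4D. Mt2 had 106, 303, 205 and 254 CPM in GF, 190, 131, 128 and 230 CPM in Abx_14D, 126, 47.6, 130 and 187 CPM in Abx_4D, and 26.5, 7.89, 29.4 and 41.9 CPM in Ctrl. Every sample of the other groups lay above every Ctrl sample, and the log2 change was 3.03 ± 0.38 in GF (edgeR adjusted p = 2.9e-05), 2.67 ± 0.39 in Abx_14D (0.00055) and 2.28 ± 0.39 in Abx_4D (0.0088). Mt1 had 89.9, 215, 163 and 207 CPM in GF, 134, 106, 184 and 213 CPM in Abx_14D, 88.3, 110, 98.4 and 169 CPM in Abx_4D, and 55.6, 28.4, 39.7 and 36.9 CPM in Ctrl, again without overlap with Ctrl. The zinc exporter Slc30a1 rose in GF, with 35.2 ± 2.71 CPM in GF and 12.8 ± 4.98 CPM in Ctrl (SD, n = 4 each), at a log2 change of 1.44 ± 0.31 (edgeR adjusted p = 0.0084).

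Egfr, the receptor for epidermal growth factor, was the 1 gene called among 16 of its pathway, and it rose in all 3 groups. The list's median log2 change was -0.20 in GF, -0.25 in Abx_14D and -0.10 in Abx_4D, with 12, 12 and 9 of the 16 negative. At an unadjusted edgeR p under 0.05, 5 were lower in GF, 3 in Abx_14D and 4 in Abx_4D, and 1 was higher in each. The Egfr call was lost in 3 of 37 settings in GF, 10 of 37 in Abx_14D and 17 of 37 in Abx_4D. It had 337, 287, 250.97 and 255 CPM in GF, 254, 345, 257 and 297 CPM in Abx_14D, 284, 277, 351 and 272 CPM in Abx_4D, and 185, 186, 170 and 179 CPM in Ctrl. No sample of the other groups overlapped Ctrl, and the log2 change was 0.65 ± 0.14 in GF (edgeR adjusted p = 0.011), 0.68 ± 0.15 in Abx_14D (0.023) and 0.72 ± 0.15 in Abx_4D (0.037). Tfrc, the transferrin receptor of iron uptake, averaged 799.9 ± 87.5 CPM in GF, 1232 ± 125 CPM in Abx_14D, 1189 ± 308 CPM in Abx_4D and 582 ± 144 CPM in Ctrl (SD, n = 4 each). It rose in Abx_14D (log2 change 1.08 ± 0.19, edgeR adjusted p = 0.0056) and Abx_4D (1.04 ± 0.19, 0.018) and did not pass in GF (0.46 ± 0.19, 0.22). Malrd1, a protein known in the mouse for bile acid regulation, had 279, 227, 246 and 356 CPM in GF, 148, 273, 205 and 218 CPM in Abx_14D, 210, 107, 117 and 106 CPM in Abx_4D, and 70.2, 120, 75.5 and 77.1 CPM in Ctrl. GF and Abx_14D lay above Ctrl without overlap, at log2 changes of 1.69 ± 0.24 (edgeR adjusted p = 0.00013) and 1.30 ± 0.24 (0.0066), and Abx_4D overlapped it. Members with tuft or enteroendocrine markers held 258 of the 1274 Malrd1 counts in GF, and without them it averaged 225 ± 35.7 CPM in GF and 78.4 ± 29.5 CPM in Ctrl.

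**Figure D4:**
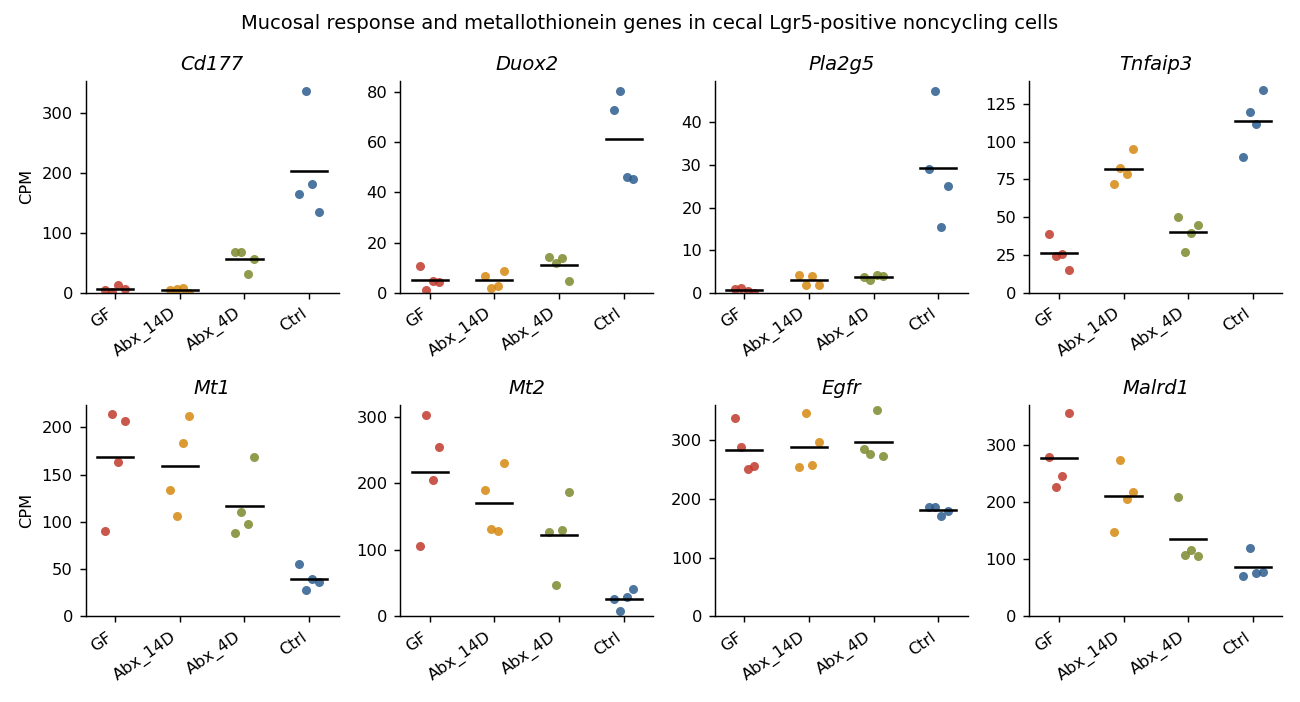
Levels of Cd177, Duox2, Pla2g5, Tnfaip3, Mt1, Mt2, Egfr and Malrd1 in Lgr5-positive noncycling cells (CPM, vertical axes from 0) in GF, Abx_14D, Abx_4D and Ctrl, with 1 point per sample and a black line at the mean. Duox2 in Ctrl (45.3 to 80.4 CPM) and Mt2 in Ctrl (7.89 to 41.9 CPM) lie apart from all other samples.

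Gpc6 and Fzd6 rose in GF and Abx_14D, and Ros1 in GF. The heparan sulfate proteoglycan Gpc6 averaged 97.6 ± 43.6 CPM in GF, 73.3 ± 6.22 CPM in Abx_14D, 29.9 ± 15.1 CPM in Abx_4D and 18.3 ± 11.3 CPM in Ctrl (SD, n = 4 each). The Wnt receptor Fzd6 averaged 25.5 ± 8.23 CPM in GF, 31.5 ± 14.3 CPM in Abx_14D, 19.3 ± 8.41 CPM in Abx_4D and 8.27 ± 1.22 CPM in Ctrl (SD, n = 4 each). The log2 changes in GF and Abx_14D against Ctrl were 2.43 ± 0.40 and 2.00 ± 0.41 for Gpc6 and 1.59 ± 0.39 and 1.95 ± 0.38 for Fzd6, and both passed the edgeR test in both groups. Ros1, a receptor tyrosine kinase, had 47.4, 42.5, 26.6 and 16.8 CPM in GF, 8.997, 7.88, 13.3 and 14.1 CPM in Abx_14D, 6.64, 5.95, 2.14 and 4.79 CPM in Abx_4D, and 3.97, 0, 8.96 and 3.35 CPM in Ctrl. GF stood above all other samples, with a log2 change of 2.92 ± 0.48 against Ctrl (edgeR adjusted p = 0.00081) and 1.64 ± 0.40 against Abx_14D (0.070).

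The genes of stem cell identity gave few calls. Of 21 Wnt-dependent stem cell genes tested, 0 rose in any of the 3 comparisons. In GF 2 fell (Prom1 and Tnfrsf19), where 2.28% of all genes were called lower. In Abx_14D 1 fell (Prom1), where 0.606% were, and in Abx_4D 0 fell, where 0.127% were. At an unadjusted edgeR p under 0.05, 4 were lower in GF, 3 in Abx_14D and 4 in Abx_4D, and 0 were higher. The median log2 changes were -0.06, -0.14 and -0.08 in GF, Abx_14D and Abx_4D. Smoc2 had 380, 415, 348 and 268 CPM in GF, 290, 428, 298 and 471 CPM in Abx_14D, 319, 303, 249 and 277 CPM in Abx_4D, and 297, 397, 274 and 241 CPM in Ctrl. Axin2, a direct Wnt target, had 215, 150, 176 and 181 CPM in GF, 218, 164, 152 and 172 CPM in Abx_14D, 222, 232, 225 and 161 CPM in Abx_4D, and 192, 191, 193 and 137 CPM in Ctrl. Groups overlapped for both genes, and no log2 change of Smoc2 or Axin2 against Ctrl was larger than 0.29. Prom1, the surface protein CD133 of crypt progenitors, had 271, 238, 337 and 352 CPM in GF, 227, 316, 262 and 234 CPM in Abx_14D, 386, 351, 212 and 227 CPM in Abx_4D, and 433, 503, 508 and 468 CPM in Ctrl. Ctrl lay above every other sample, and the log2 change was -0.67 ± 0.18 in GF (edgeR adjusted p = 0.039), -0.88 ± 0.18 in Abx_14D (0.018) and -0.71 ± 0.18 in Abx_4D (0.14). The Prom1 call was lost in 15 of 37 settings in GF and 5 of 37 in Abx_14D. Tnfrsf19, a Wnt-responsive receptor, was just under the threshold in GF (-2.01 ± 0.57, edgeR adjusted p = 0.04998). The Tnfrsf19 call was lost in 22 of 34 settings, over which the log2 change was -2.43 to -1.31.

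Regional genes likewise gave few calls between cecal groups. Of 13 Hox genes and 15 region transcription factors tested, 0 passed the edgeR test in GF, Abx_14D or Abx_4D against Ctrl, and at an unadjusted p under 0.05 were 3 Hox genes in GF, 1 in Abx_14D and 0 in Abx_4D, and 2, 1 and 0 region factors in GF, Abx_14D and Abx_4D. Among 5 tested genes listed for the proximal colon and cecum, Muc16, a transmembrane mucin, rose in Abx_14D, with 50.3 ± 16.2 CPM in Abx_14D and 15.4 ± 9.53 CPM in Ctrl (SD, n = 4 each), and Apob, the lipoprotein component, rose in GF by 1.02 on the log2 scale. Among 7 tested genes listed for the distal colon, Car4, a carbonic anhydrase, rose in GF by 0.85 and Gsdmc4, a gasdermin, fell in Abx_4D by 2.29 on the log2 scale.

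Protein folding and replication genes fell in part. Of 15 endoplasmic reticulum stress genes tested, 6 fell in GF, 3 in Abx_14D and 0 in Abx_4D, with median log2 changes of -0.65, -0.62 and -0.31. Hspa5, the chaperone BiP, had 228, 267, 274 and 293 CPM in GF, 290, 232, 201 and 256 CPM in Abx_14D, 390, 283, 280 and 348 CPM in Abx_4D, and 673, 399, 386 and 469 CPM in Ctrl. GF and Abx_14D lay below Ctrl, and Abx_4D overlapped it through 1 sample above the lowest Ctrl value, and the log2 change was -0.86 ± 0.17 in GF (edgeR adjusted p = 0.0050) and -0.97 ± 0.17 in Abx_14D (0.0057). Of 19 S-phase and replication genes tested, 4 fell in GF (Mcm2, Mcm3, Mcm4 and Mcm7, subunits of the replicative helicase) and 0 in either Abx group. At an unadjusted edgeR p under 0.05, 15 were lower in GF, 7 in Abx_14D and 8 in Abx_4D, and 0 were higher. The median log2 changes were -0.78, -0.53 and -0.38 in GF, Abx_14D and Abx_4D. The calls of Mcm2, Mcm3, Mcm4 and Mcm7 were lost in 9, 11, 1 and 12 of 37 settings. Members were chosen at full depth by fewer than 3 mitotic genes, a limit that is stricter in deeper cells. Median depth of members averaged 17535 transcripts in GF, 13781 in Abx_14D, 12034 in Abx_4D and 12712 in Ctrl (n = 4 samples each). The thinned setting kept the members chosen at full depth, and the part of depth in these falls was not tested. Jun and Egr1, genes that cell dissociation is known to induce, were the 2 called lower of 16 stress genes tested in GF. In Abx_14D 1 was called lower (Dnajb1), and in Abx_4D 0 were. Their log2 change against Ctrl was negative for 16 genes in GF, 14 in Abx_14D and 13 in Abx_4D. List medians were -0.65, -0.29 and -0.27 in GF, Abx_14D and Abx_4D. The part of handling in these differences was not tested. Of 26 oxidative phosphorylation genes tested, 0 passed the edgeR test in any of the 3 comparisons (0 in GF, 2 in Abx_14D and 1 in Abx_4D at an unadjusted p under 0.05).

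Between the depleted groups, 45 genes were called in GF against Abx_14D (0.478% of 9412, 24 higher and 21 lower; DESeq2 called 17 higher and 30 lower) and 10 in Abx_14D against Abx_4D (0.106%, with 0.0212% higher and 0.085% lower). The class II genes made up 5 of the 8 lower in Abx_14D against Abx_4D: Cd74, H2-Aa, H2-Ab1, H2-Eb1 and Ciita, with a median log2 change of -2.26 over the 6 tested, beside 0.01 over all genes. Of 10 tuft markers tested, 9 were higher in GF than in Abx_14D. The summed tuft markers were 1060 ± 413 CPM in GF, 68.4 ± 89.0 CPM in Abx_14D, 12.7 ± 5.47 CPM in Abx_4D and 225 ± 291 CPM in Ctrl (SD, n = 4 each). Members with 3 or more tuft or enteroendocrine markers carried 2978 of the 2984 Dclk1 counts in GF, and without them 20 genes were called in GF against Abx_14D. Without them 52 of 61 named genes in GF against Ctrl, 34 of 34 in Abx_14D and 13 of 15 in Abx_4D still passed. Enteroendocrine markers summed to 14.1 ± 5.597 CPM in GF, 11.7 ± 5.18 CPM in Abx_14D, 95.2 ± 101 CPM in Abx_4D and 19.5 ± 7.53 CPM in Ctrl. Ptprn2, a protein of secretory granules that rose in Abx_4D, had 528 of its 540 counts there in these cells, and without them it averaged 3.11 ± 2.61 CPM in Abx_4D and 3.33 ± 1.43 CPM in Ctrl (SD, n = 4 each).

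Rora, a nuclear receptor of the circadian clock, had 178, 134, 122.9 and 141 CPM in GF, 15.5, 53.4, 41.3 and 26.3 CPM in Abx_14D, 27.5, 8.92, 23.5 and 34.5 CPM in Abx_4D, and 19.9, 53.6, 98.5 and 13.4 CPM in Ctrl. GF lay above every other sample, at log2 changes of 1.60 ± 0.39 against Ctrl (edgeR adjusted p = 0.022) and 2.06 ± 0.39 against Abx_14D (0.011). It was the 1 gene called of 14 clock genes tested in each of the 2 comparisons.

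The same changes were compared with those in other cecal cells of the same samples. Against Lgr5-positive cycling cells, the change relative to Ctrl differed for 3 genes of 10391 in GF (0.0289%), 2 in Abx_14D (0.0192%) and 1 in Abx_4D (0.00962%), by an edgeR interaction test with the sample as a block. Rora was one of them: its change in Abx_14D was higher by 2.91 ± 0.43 (log2) in members than in cycling cells (edgeR adjusted p = 0.0025), with 34.1 ± 16.6 CPM in Abx_14D members and 46.4 ± 39.0 CPM in Ctrl members, and 5.78 ± 1.76 CPM in Abx_14D cycling cells and 61.1 ± 69.7 CPM in Ctrl cycling cells. Cd74 averaged 4.03 CPM in GF, 46.4 CPM in Abx_14D, 212 CPM in Abx_4D and 454 CPM in Ctrl in cycling cells, and its change in members minus that in cycling cells was 0.05 ± 0.52 in GF, 0.79 ± 0.27 in Abx_14D and 0.24 ± 0.25 in Abx_4D, none past the threshold.

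Against absorptive cells, the change relative to Ctrl differed for 68 genes of 10441 in GF (0.651%, with 0.374% higher and 0.278% lower), 35 in Abx_14D (0.335%) and 13 in Abx_4D (0.125%, with 0.0575% higher and 0.067% lower). Cobl, an actin nucleator, was called in all 3. In members it averaged 354 ± 27.8 CPM in GF, 289.9 ± 37.3 CPM in Abx_14D, 249 ± 77.4 CPM in Abx_4D and 297 ± 32.1 CPM in Ctrl (SD, n = 4 each). In absorptive cells it averaged 464 ± 60.9 CPM in GF, 513 ± 134 CPM in Abx_14D, 412 ± 67.4 CPM in Abx_4D and 117 ± 39.9 CPM in Ctrl (SD, n = 4 each). Its change against Ctrl in members minus that in absorptive cells was -1.83 ± 0.26 in GF (edgeR adjusted p = 0.0012), -2.23 ± 0.27 in Abx_14D (0.00014) and -2.16 ± 0.27 in Abx_4D (0.00051). Hpgd, which breaks down prostaglandins, averaged 126 CPM in GF, 142 CPM in Abx_14D, 163 CPM in Abx_4D and 141 CPM in Ctrl in members, and 452 CPM in GF, 406 CPM in Abx_14D, 321 CPM in Abx_4D and 79.5 CPM in Ctrl in absorptive cells. The interaction was -2.62 ± 0.28 in GF, -2.29 ± 0.28 in Abx_14D and -1.72 ± 0.28 in Abx_4D. Aqp4, a water channel, averaged 80.5 CPM in GF and 150 CPM in Ctrl in members, against 4.56 CPM in GF and 124 CPM in Ctrl in absorptive cells, an interaction of 3.43 ± 0.55 (edgeR adjusted p = 0.0024). Duox2 fell less in members than in absorptive cells of GF, by 2.56 ± 0.58 (edgeR adjusted p = 0.035), while no class II gene passed the interaction test in any group.

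The same rule picked 2067 cells in the colon, and cecal members were compared with them in GF and Abx_14D, where both tissues had 4 samples. Of 10461 genes, 1076 differed in GF (10.3%; 504 or 4.82% higher and 572 or 5.47% lower in the cecum) and 1678 in Abx_14D (16%; 952 or 9.1% higher and 726 or 6.94% lower, with 761 higher and 892 lower under trimmed-mean scaling). The 2 tissue comparisons share no samples. Glycan-synthesis enzymes were among the genes with the largest differences. Car4, on the list for the distal colon, averaged 114 ± 15.4 CPM in the GF cecum and 4.85 ± 3.68 CPM in the GF colon (SD, n = 4 each), a log2 difference of 4.27 ± 0.32.

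Hox genes are known to pattern the body axis, with the last paralogs expressed toward the tail end. Of 17 Hox genes tested, 4 were higher and 4 lower in the cecum in GF, and 5 were higher and 4 lower in Abx_14D. Hoxb13 had 0 counts in each cecal sample of both groups, against 19.4, 22.3, 19.7 and 8.18 CPM in the GF colon and 13.4, 22.9, 20.04 and 24.3 CPM in the Abx_14D colon. The cecum was at least 31.1-fold lower in GF and at least 20.8-fold lower in Abx_14D, with 3 counts over the group as the floor. Hoxd11 was also at 0 counts in the cecum of both groups, and Hoxd13 had 1 count in the GF cecum (67.1-fold lower, 95% counting interval 11.9 to 2661) and 0 in the Abx_14D cecum. The anterior genes went the other way: Hoxb3 averaged 105 ± 14.4 CPM in the GF cecum and 57.2 ± 7.75 CPM in the GF colon, and 115 ± 16.4 CPM in the Abx_14D cecum and 60.8 ± 11.4 CPM in the Abx_14D colon (SD, n = 4 each). Hoxa7 was also higher in the cecum, with log2 differences of 0.87 ± 0.19 in GF and 0.79 ± 0.20 in Abx_14D. Osr2, a zinc finger transcription factor, was lower in the cecum, at log2 differences of -2.32 ± 0.29 in GF and -2.24 ± 0.30 in Abx_14D.

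Of 25 glycosylation genes tested, 3 were higher and 12 lower in the cecum in GF, and 3 were higher and 13 lower in Abx_14D, with medians of -0.46 and -0.45. B3gnt7, an N-acetylglucosaminyltransferase, had 2.90, 1.12, 1.87 and 0 CPM in the GF cecum and 113, 95.5, 152 and 81.2 CPM in the GF colon, and 3.27, 0.876, 0 and 1.76 CPM in the Abx_14D cecum and 49.3, 80.9, 91.9 and 89.2 CPM in the Abx_14D colon. The log2 difference was -6.01 ± 0.40 in GF (edgeR adjusted p = 1.5e-09) and -5.50 ± 0.44 in Abx_14D (1.3e-08), with no overlap. The sialyltransferase St3gal6 averaged 10.9 ± 3.77 CPM in the GF cecum and 193 ± 33.6 CPM in the GF colon (SD, n = 4 each), and St6galnac6 averaged 6.02 ± 2.10 CPM in the GF cecum and 83.9 ± 12.3 CPM in the GF colon. Other glycan enzymes were higher in the cecum. Gal3st2c, a galactose sulfotransferase, had 275, 273, 339 and 322 CPM in the GF cecum and 7.47, 23.2, 13.1 and 4.40 CPM in the GF colon, and 182, 264, 314 and 337 CPM in the Abx_14D cecum and 12.7, 5.85, 9.43 and 1.16 CPM in the Abx_14D colon. Its log2 difference was 4.51 ± 0.34 in GF and 4.98 ± 0.38 in Abx_14D, and that of the ganglioside-forming sialyltransferase St3gal5 was 4.13 ± 0.42 and 4.01 ± 0.43.

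**Figure D5:**
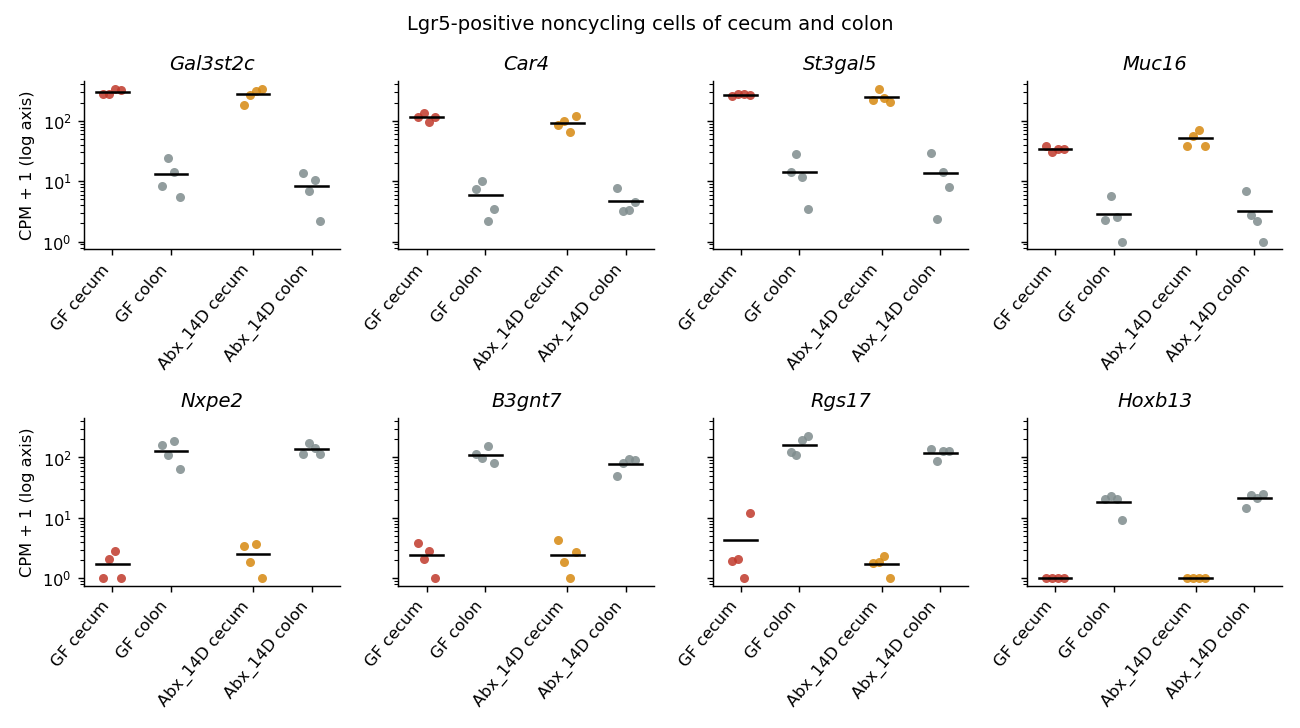
Levels of Gal3st2c, Car4, St3gal5, Muc16, Nxpe2, B3gnt7, Rgs17 and Hoxb13 in Lgr5-positive noncycling cells of the cecum and colon in GF and Abx_14D. There is 1 point per sample and a black line at the mean. Vertical axes are logarithmic and show CPM + 1, while the values given here are CPM. Gal3st2c lies at 182 to 339 CPM in the cecum and 1.16 to 23.2 CPM in the colon. Hoxb13 has 0 CPM in every cecal sample, which is drawn at 1.

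Of 22 xenobiotic response genes tested, 10 were higher and 0 lower in GF, and 11 were higher and 1 lower in Abx_14D. Ces1g, a carboxylesterase, averaged 87.8 ± 10.8 CPM in the GF cecum and 14.0 ± 4.74 CPM in the GF colon (SD, n = 4 each). Cyp2c65, a cytochrome P450, averaged 246 ± 51.2 CPM in the GF cecum and 25.9 ± 13.2 CPM in the GF colon (SD, n = 4 each), and Apob averaged 231 ± 61.8 CPM in the GF cecum and 33.8 ± 11.2 CPM in the GF colon. Of 26 oxidative phosphorylation genes, 9 were higher and 1 lower in GF, and 19 were higher and 0 lower in Abx_14D, with median log2 differences of 0.51 and 0.68 beside 0.04 and 0.08 over all genes tested. Of 22 cholesterol synthesis genes, 1 was higher and 0 lower in GF, and 7 were higher and 0 lower in Abx_14D. Of 28 fatty acid oxidation and PPAR genes, 2 were higher and 1 lower in GF, and 6 were higher and 1 lower in Abx_14D. Over all genes tested, 4.82% were higher and 5.47% lower in the cecum in GF, and 9.1% were higher and 6.94% lower in Abx_14D. The GF counts of the cholesterol and fatty acid lists lay near these shares. Mt1 and Mt2 were higher in the cecum in both groups, by 2.06 ± 0.24 for Mt2 in GF. Absorptive markers were higher for 4 and lower for 1 of 14 in GF, and higher for 8 and lower for 1 of 14 in Abx_14D, and their part in these differences was not tested. In the members' sums, absorptive markers came to 1988 to 3202 CPM in GF and 2073 to 6387 CPM in Abx_14D.

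Axin2 averaged 180.5 ± 26.6 CPM in the GF cecum and 298 ± 24.1 CPM in the GF colon (SD, n = 4 each), a log2 difference of -0.72 ± 0.13 in GF and -0.88 ± 0.13 in Abx_14D. Smoc2 and Kcnq1 were the other 2 of 21 Wnt-dependent genes lower in GF, and in Abx_14D 7 were lower and 1 higher. Duox2 averaged 5.15 ± 3.98 CPM in the GF cecum and 69.2 ± 23.8 CPM in the GF colon (SD, n = 4 each). Of 6 class II genes tested, 3 were lower in the cecum in Abx_14D (H2-Eb1, Ciita and H2-Aa) and 0 passed the edgeR test in GF (1 at an unadjusted p under 0.05). Of 36 interferon-response genes tested, 16 were lower and 0 higher in the cecum in Abx_14D (median -0.76), and 2 were lower and 2 higher in GF (median -0.07). The difference between the 2 tissue comparisons was not tested.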

How the data were processed

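The labels describe EDTA-isolated epithelium of mouse colon and cecum, sorted and prepared with a Parse Evercode whole-transcriptome kit that reads polyadenylated RNA. The deposited values are raw transcript counts per gene and cell, made by the authors with tools not given in the sources used here beyond Seurat and build mm39, per the submitters' processing notes. The labels give sublibraries only, so groups and sample numbers were read from the cell table that was deposited.

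Cells of at least 500 transcripts were kept, and no doublet caller was run. Counts were summed per sample and cell class (at least 10 cells) and tested with edgeR 4.0.16 (R 4.3.3): library-size scaling, filterByExpr, glmQLFit and glmQLFTest, with Benjamini-Hochberg adjustment over all genes tested and a threshold of 0.05. The 4 cecal groups entered 1 fit. The tissue fit held both tissues of GF and Abx_14D, and the interaction fits held 2 classes with the sample as a block. Levels are counts per 1000000 summed transcripts (CPM). Shares were compared with exact permutation tests over samples. Detection was compared after thinning cells to 5000 transcripts (seed 1). Tools were Python 3.11.15, numpy 2.4.6, scipy 1.17.1 and pandas 2.3.3; limma 3.58.1 and DESeq2 1.42.0 served as alternatives. The fits were tested on simulated data.

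Named genes were, per comparison, the 10 called genes each way with the largest log2 change among those averaging at least 20 CPM in the higher group (5 each way for interactions), the Wnt-dependent list, and from every other list up to 4 called genes with the lowest p; genes shown outside it were chosen after their values were seen. Promoters were taken for the pathway list with the largest share of called genes. The X box was first searched in a longer form, which matched H2-Eb1 and not H2-Aa, and is given by its core. Some genes that the rule names are not reported here. The members, lists and tests were chosen with earlier results of these data known. Absorptive cells are noncycling cells without Lgr5 transcripts that held 5 or more of 10 absorptive genes. Alternatives were other scalings, filters, tools, Lgr5 thresholds and left-out samples or sublibraries. Where a call is said to be lost in some of a number of settings, that number includes the main fit. Deviations of same-numbered cecal samples of different groups had correlations of -0.165 to 0.161 (median 0.030, 4 of 24 above 0.1). Differently numbered samples had a median of -0.014. Weak correlations cannot settle whether the numbers pair samples. Same-numbered cecum and colon samples were not compared in this way, and the tissue fit took them as unpaired.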

Additional observations from a re-analysis of the deposited data

Results flagged for a closer look

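In groups of 4 samples, a sample far from the other 3 was found for 8 of 104 group values over 42 genes, where chance gives about 5%. These were Dnah11 in GF 4 (30.7 CPM), Fzd6 in GF 1 (37.7 CPM), Gpc6 in Abx_14D 3 (82.5 CPM), Slc6a20a in Abx_14D 3 (24.0 CPM), Egfr in Abx_4D 3 (351 CPM), Malrd1 in Abx_4D 1 (209.8 CPM) and in Ctrl 2 (119.9 CPM), and the unannotated gene Gm16685 in Ctrl 4 (265 CPM). The share of members with tuft markers was 0% in Abx_14D 1 and above 0 in the other 3 samples of that group.

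The change against Ctrl differed between members and Lgr5-positive cycling cells by the edgeR interaction test for Rora (2.91) and Lrmda (1.28) in Abx_14D, Ptpn6 (1.88) and D17H6S56E-5 (-1.07) in GF, and Ptprn2 (8.01) in Abx_4D, each value being the log2 change in members minus that in cycling cells. Without the members that held tuft or enteroendocrine markers, Ptprn2 gave 2.89 and Ptpn6 gave 0.53, and neither was called.

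The change against Ctrl also differed between members and absorptive cells. In Abx_4D the interaction, members minus absorptive cells on the log2 scale, was 3.03 for 2700054A10Rik, 2.98 for 9030404E10Rik, 1.42 for Agpat4, 1.35 for Hivep3 and 1.33 for Cd38, and -3.54 for Gm16685, -2.16 for Cobl, -2.12 for Slc1a4, -2.11 for Cnksr3 and -1.96 for Gk. In Abx_14D it was 3.03 for 9130227L01Rik, 2.69 for Aqp4, 2.69 for Rdh16, 2.64 for Il18 and 2.54 for 2700054A10Rik, and -3.77 for F3, -3.26 for Slit2, -2.33 for Aldh1a1, -2.29 for Hpgd and -2.23 for Cobl. In GF it was 7.04 for Plet1, 6.26 for Oas1b, 5.20 for Rsad2 and 4.999 for Slfn4, and -6.38 for Cdc6, -4.48 for Spink1, -4.18 for Prss23, -3.28 for Bmp1 and -2.91 for Aldh1a1. Cdc6 had 0 counts in absorptive cells of Ctrl, so its fitted value depends on the prior count. Without the members that held tuft or enteroendocrine markers, the interaction was 5.23 for Rsad2, -3.24 for Bmp1 and -5.58 for Spink1, each short of the edgeR threshold and so not called.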

How the results depend on the processing

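Of the named changes under the alternatives, 6621 kept their direction and call, 1201 kept their direction and lost the call, and 0 changed direction. A named change whose gene was not tested in a setting is not in these counts. With no filter 223 were tested, against 161 with cells thinned, 199 without marker-positive members and 209 without sublibrary 4. Cd74 was called in each setting tested for GF and Abx_14D against Ctrl, GF against Abx_14D and Abx_14D against Abx_4D. Differences in share, in percentage points, changed sign under some settings. Abx_14D against Abx_4D was 0.966 without samples of high mitochondrial share, Abx_14D against Ctrl 0.776 and GF against Abx_14D -1.63 in that setting. Abx_4D against Ctrl was -0.190 there, -0.00711 thinned and -0.501 with 2 Lgr5 transcripts, and GF against Ctrl was 0.446 thinned and 1.23 with 5. Leaving out 1 sample gave -2.20 to 3.81 (Abx_4D against Ctrl), -6.58 to -0.561 (Abx_14D against Ctrl), -3.91 to 2.11 (GF against Ctrl), -6.39 to -2.07 (Abx_14D against Abx_4D) and 0.369 to 4.68 (GF against Abx_14D).

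Counts of called genes moved as follows, and the cause was not tested. GF against Ctrl gave 710 with no filter and 115 thinned. Abx_14D against Ctrl gave 141 (DESeq2), 294 (no filter), 46 (thinned), 260 (cycling cells added) and 38 (without high mitochondrial samples). Abx_4D against Ctrl gave 37 (DESeq2), 10 (limma-voom), 207 (no filter), 7 (thinned) and 42 (cycling cells added). GF against Abx_14D gave 215 (no filter), 18 (thinned), 10 (without high mitochondrial samples) and 20 (without marker-positive members). Abx_14D against Abx_4D gave 3 (limma-voom), 108 (no filter), 6 (thinned) and 5 (without high mitochondrial samples). Cecum against colon gave 889 (thinned), 3564 (cycling cells added) and 1026 (without high mitochondrial samples) in Abx_14D, and 593 (thinned) and 1787 (cycling cells added) in GF. Against absorptive cells the counts were 121 (DESeq2), 117 (limma-voom), 275 (no filter), 30 (thinned) and 32 (without high mitochondrial samples) in GF. They were 71 (DESeq2), 178 (no filter), 20 (2 Lgr5 transcripts), 13 (thinned) and 10 (without high mitochondrial samples) in Abx_14D, and 31 (DESeq2), 109 (no filter), 5 (at least 20 cells), 5 (thinned) and 4 (without high mitochondrial samples) in Abx_4D. Against cycling cells they were 1 (trimmed-mean scaling), 58 (no filter) and 0 (2 Lgr5 transcripts, thinned, or without high mitochondrial samples) in GF. They were 10 (DESeq2), 80 (no filter), 4 (5 Lgr5 transcripts) and 0 (thinned, or without high mitochondrial samples) in Abx_14D, and 37 (no filter) and 0 (DESeq2, thinned, or without marker-positive members) in Abx_4D.

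Leaving out 1 sample or sublibrary gave 187 to 377 genes for GF against Ctrl, 49 to 99 for Abx_14D, 0 to 25 for Abx_4D, 7 to 62 for GF against Abx_14D and 4 to 10 for Abx_14D against Abx_4D. GF against Ctrl gave 206 without Ctrl 1, 187 without Ctrl 4, 208 without GF 1, 192 without GF 3 and 207 without sublibrary 2. Abx_14D against Ctrl gave 55 without Ctrl 1, 49 without Ctrl 4, 51 without Abx_14D 2, 49 without Abx_14D 3 and 54 without sublibrary 6, and Abx_4D against Ctrl gave 11 without Abx_4D 4, 11 without sublibrary 4 and 0 without sublibrary 6. GF against Abx_14D gave 22 without Abx_14D 1, 29 without Abx_14D 3, 26 without GF 3, 27 without GF 4, 7 without sublibrary 2 and 26 without sublibrary 5. Abx_14D against Abx_4D gave 5 without Abx_4D 1, 5 without Abx_14D 2, 6 without Abx_14D 3, 4 without sublibrary 4 and 6 without sublibrary 5, 6 or 8. The ranges were 1290 to 1800 and 789 to 1136 for cecum against colon in Abx_14D and GF, 27 to 122, 8 to 50 and 2 to 23 against absorptive cells in GF, Abx_14D and Abx_4D, and 0 to 3, 0 to 3 and 0 to 5 against cycling cells in those groups. With a replicate block the counts were 304 for GF against Ctrl, 82 for Abx_14D and 14 for Abx_4D. They were 45 for GF against Abx_14D and 7 for Abx_14D against Abx_4D. For cecum against colon they were 1660 in Abx_14D and 1056 in GF. Whether the numbers pair the samples is not known. Depth limits the low genes: with 336233 member transcripts in the smallest sample, a gene at 0 there is limited only to 3 counts of that total.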

Other observations

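Of 17 glycosylation genes tested, Muc13 and Fut2 fell in GF and in Abx_14D against Ctrl, and 0 passed the edgeR test in Abx_4D (5 at an unadjusted p under 0.05). Muc13, a membrane mucin, had 539, 521, 572 and 681 CPM in GF, 428, 628, 570 and 706 CPM in Abx_14D, 1086, 616, 785 and 656 CPM in Abx_4D, and 1141, 1153, 1079.9 and 1026 CPM in Ctrl. GF and Abx_14D lay below Ctrl without overlap, at log2 changes of -0.93 ± 0.17 (edgeR adjusted p = 0.0027) and -0.92 ± 0.17 (0.0089). Fut2, a fucosyltransferase of surface glycans, averaged 6.36 ± 4.67 CPM in GF, 5.01 ± 1.89 CPM in Abx_14D, 11.98 ± 6.75 CPM in Abx_4D and 24.6 ± 12.9 CPM in Ctrl (SD, n = 4 each). The Fut2 call was lost in 7 of 35 settings in GF and 17 of 35 in Abx_14D. Members with tuft or enteroendocrine markers held 12 of its 30 counts in GF.

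Of 28 fatty acid oxidation and PPAR genes tested in GF, 3 fell (Plin2, Acot1 and Acadl) and Ppara rose, and 0 passed the edgeR test in either Abx group (10 in Abx_14D and 5 in Abx_4D at an unadjusted p under 0.05). The Ppara call, at a log2 change of 0.85 ± 0.23 (edgeR adjusted p = 0.042), was lost in 21 of 37 settings, over which the change was 0.341 to 1.007. Plin2, which coats lipid droplets, had 67.7, 51.4, 61.7 and 39.1 CPM in GF and 142, 148, 143 and 114 CPM in Ctrl, a log2 change of -1.29 ± 0.25 (edgeR adjusted p = 0.0040). Ceacam10, a secreted member of the carcinoembryonic antigen family, averaged 0.981 ± 1.33 CPM in GF, 2.23 ± 1.90 CPM in Abx_14D, 16.7 ± 7.60 CPM in Abx_4D and 35.9 ± 6.84 CPM in Ctrl (SD, n = 4 each). It fell in GF and in Abx_14D against Ctrl, and in Abx_14D against Abx_4D by 2.92 ± 0.58 on the log2 scale (edgeR adjusted p = 0.046).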
